A study of Mus musculus with 6 samples.

Results

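Expression of 34 genes of enteric neurons, enteric glia and their transmitters was compared between the colon of mice lacking HDAC2, a class I histone deacetylase, in the intestinal epithelium and the colon of control mice. The genes were taken by symbol: every probe set that the platform annotation names for one of them was used, which gave 75 probe sets of 34 genes out of 18193 genes on the array. The data comprised 6 one-colour Affymetrix arrays, 3 of control mice and 3 of HDAC2 KO mice, and the labels name 1 numbered mouse per array. The HDAC2 KO mice carried floxed Hdac2 alleles and a villin-Cre transgene, and all mice were of a mixed CD-1/129/C57BL/6 background, untreated and on a normal diet. The alleles of the controls and the age of the mice are not given in the sources used here. The villin promoter drives Cre in epithelial cells, so the neurons, glia and muscle of these mice were not the cells targeted. The description of the HDAC2 KO samples names HDAC1/2, while their titles and genotype name HDAC2 alone.

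The enteric nervous system lies in ganglia between the muscle layers and in the submucosa of the gut. Its neurons and glia descend from neural crest cells that colonise the bowel under GDNF, acting through RET and its co-receptor GFRA1, and endothelin 3, acting through EDNRB. Excitatory neurons release acetylcholine and tachykinins, inhibitory neurons release nitric oxide and VIP, and interstitial cells of Cajal set the slow waves of the muscle. The 34 genes hold no marker of interstitial cells, so pacemaker genes were read from a separate list.

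The source label names epithelium, whereas the extraction text speaks of colon. Markers of epithelium (10 of 10, Vil1 and Muc2 among them) and of smooth muscle (15 of 15, Cnn1 and Des among them) all lay above the signal filter, a log2 signal of 6.66 that was the 40th percentile of gene means. The targeted gene Hdac2 was lower in HDAC2 KO, by 0.21 on the log2 scale (SE 0.040, limma adjusted p = 0.00893, n = 3 arrays per group). This call was lost in 2 of 16 alternative fits. Over all probe sets the limma adjusted p of the same probe set was 0.0768. Another Hdac2 probe set above the filter gave -0.22 without overlap between the groups (limma adjusted p = 0.253 over all probe sets). Across the 10916 genes tested, the correlation was 0.996 to 0.999 for array pairs within a group and 0.991 to 0.992 for pairs that spanned the groups, a description over genes that share an array.

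Of the 34 genes, 24 passed the filter and were tested, and 10 lay below it. Of the 24, 5 were higher in HDAC2 KO at a limma adjusted p under 0.05, 0 were lower and 19 were not called. The 5 higher genes are 20.8% of the 24, where 9.68% of all genes tested were higher; 0 of the 24 were lower, where 8.2% of all genes were. Counting both directions, 17.9% of all genes tested were called, near the share among the 24. The 5 genes were Gal, Calb2, Hand2, Stmn3 and Syt1. The median difference of the 24 genes was 0.06 against 0.0032 over all genes tested, with 17 above 0 and 7 below. In RNA of a whole sample, more cells of a type and more RNA per cell cannot be told apart. Each difference given is the HDAC2 KO mean minus the control mean in RMA log2 signal, a scale that compresses differences at low signal.

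**Figure D1:**
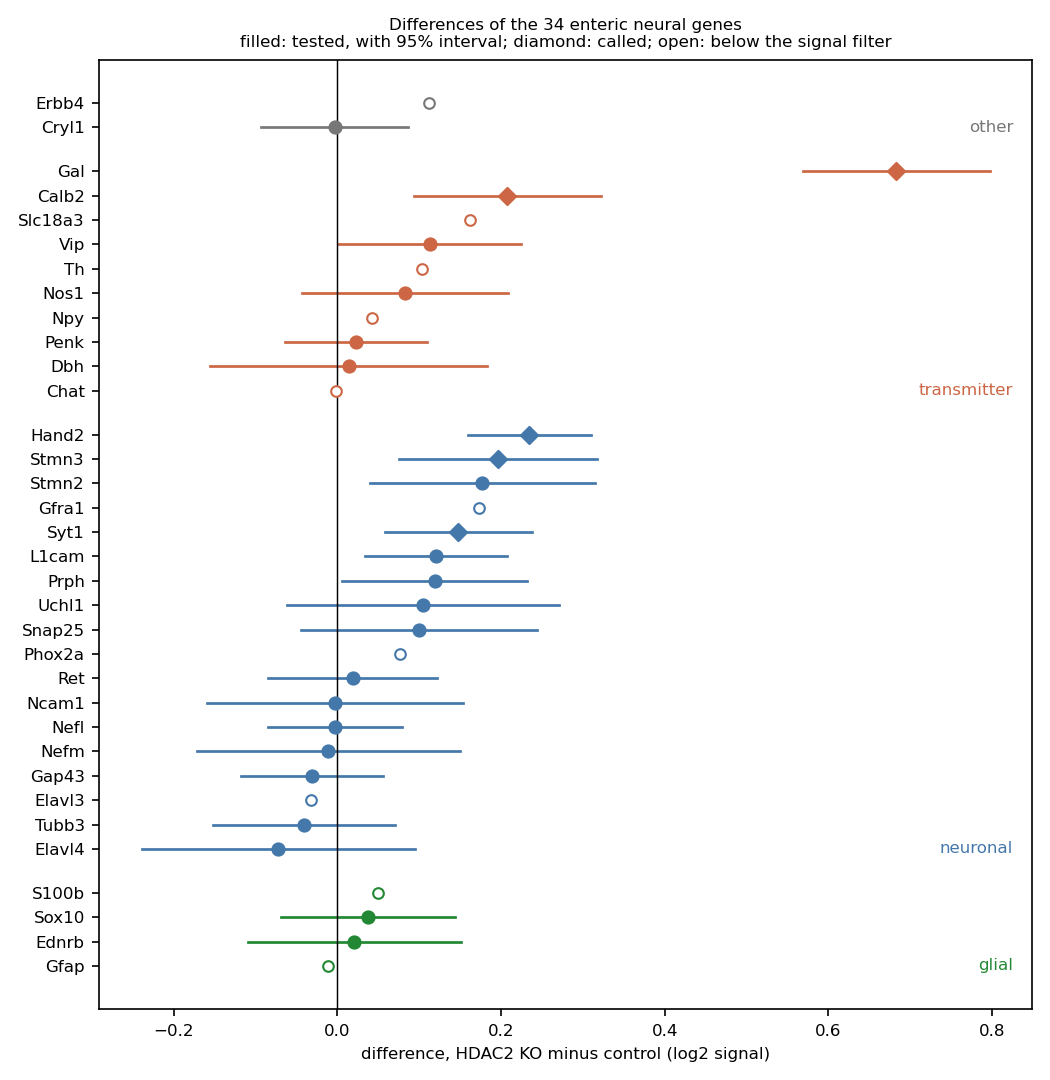
Differences of the 34 genes (HDAC2 KO minus control, log2 signal) by class, with the 95% interval from limma for the 24 genes tested (filled), diamonds for the 5 called genes and open circles for the 10 genes below the signal filter. Gal, at 0.68, stands apart from the other genes, which lie between -0.07 and 0.23.

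The transmitter genes held the largest difference. Gal, which encodes the neuropeptide galanin, read 6.89, 7.06 and 6.90 in control and 7.64, 7.61 and 7.65 in HDAC2 KO. All HDAC2 KO arrays lay above all control arrays, with a gap of 0.55 between the groups. The signal was 1.61-fold higher (difference 0.68, SE 0.050, limma adjusted p = 6.85e-05), with a 95% interval of 1.48-fold to 1.74-fold. Its control mean of 6.95 lies close to the filter level, where RMA can understate folds. The call was kept in each of the 15 alternative fits that tested Gal.

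Calb2 encodes calretinin, a calcium-binding protein found in a subset of enteric neurons. It read 8.40, 8.36 and 8.32 in control and 8.58, 8.64 and 8.47 in HDAC2 KO, without overlap. The difference was 0.21 (SE 0.050, limma adjusted p = 0.0241), or 1.15-fold. This call was lost in 6 of 16 alternatives, among them the removal of any 1 control array or of HDAC2 KO replicate 1 (adjusted p between 0.0542 and 0.0859 in those fits), while the difference stayed between 0.17 and 0.26.

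The other transmitter genes tested were not called. Vip, the peptide of inhibitory motor and secretomotor neurons, read 9.51, 9.56 and 9.43 in control and 9.61, 9.55 and 9.68 in HDAC2 KO, so that the groups overlapped (difference 0.11, SE 0.048, adjusted p = 0.154). Nos1, the neuronal nitric oxide synthase, gave a difference of 0.08 (SE 0.054, adjusted p = 0.348). Its HDAC2 KO array of replicate 1, at 8.27, lay among the control arrays at 8.26, 8.32 and 8.33, and the other HDAC2 KO arrays read 8.43 and 8.46. A second Nos1 probe set above the filter gave 0.19 without overlap between the groups. Penk, the enkephalin precursor, differed by 0.02 and its 95% interval ran from -0.06 to 0.11. Dbh, whose enzyme makes noradrenaline, differed by 0.01 with an interval from -0.16 to 0.18. That value comes from a probe set prone to cross-hybridise, and another above the filter gave 0.06 with overlapping groups.

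Transmitter genes below the filter were described without a call. Slc18a3, the vesicular acetylcholine transporter, read 6.38, 6.52 and 6.25 in control and 6.54, 6.54 and 6.56 in HDAC2 KO, without overlap (exact 2-sided permutation p = 0.1). Th, the rate-limiting enzyme of catecholamine synthesis, read 4.47, 4.40 and 4.41 in control and 4.52, 4.53 and 4.53 in HDAC2 KO (exact 2-sided permutation p = 0.1). With 3 against 3 arrays, 0.1 is the smallest p that test can give. Chat, which makes acetylcholine, had group means of 4.23 and 4.23, and Npy, the neuropeptide Y gene, had group means of 6.61 and 6.65. Both overlapped between the groups. At such signals most of the brightness of a probe set can be background, so the mean levels say little about these transmitters.

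**Figure D2:**
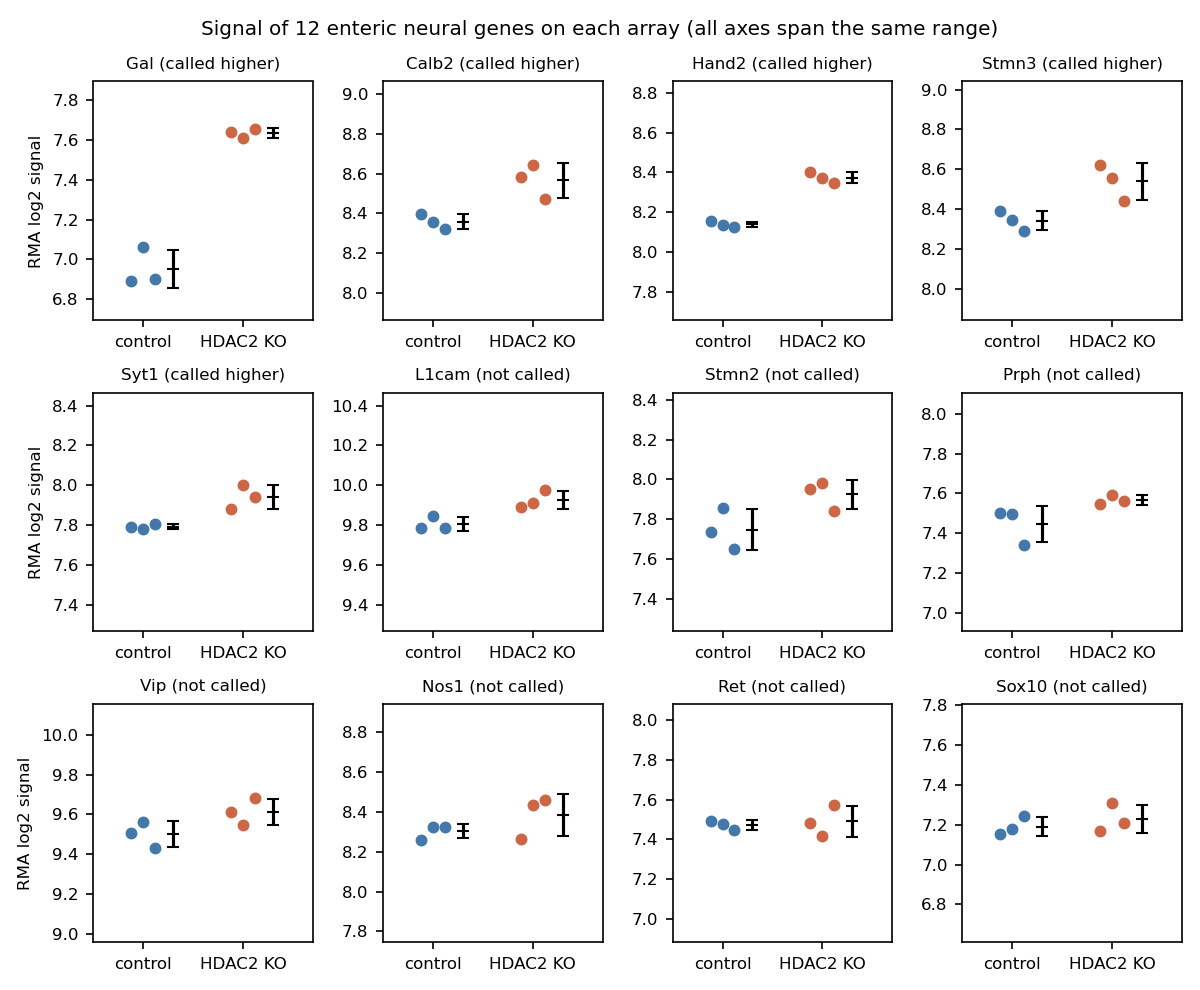
RMA log2 signal of 12 of the genes on each of the 6 arrays (points), with the mean and SD of each group of 3 (black); all panels have axes of the same span. The groups are separate for Gal, Calb2, Hand2, Stmn3, Syt1, L1cam and Prph, and overlap for Stmn2, Vip, Nos1, Ret and Sox10.

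Among the factors that build the enteric nervous system, Hand2 was higher and the receptors were not called. Hand2, a basic helix-loop-helix factor of enteric neuron differentiation that gut mesenchyme also expresses, read 8.15, 8.13 and 8.13 in control and 8.40, 8.37 and 8.35 in HDAC2 KO. The HDAC2 KO arrays lay 0.19 above the highest control array at the closest point. The difference was 0.23 (SE 0.033, limma adjusted p = 0.00203), or 1.18-fold. It was called in 15 of 16 alternatives, and lost where the probe sets of each gene were averaged (difference 0.12, adjusted p = 0.0627). Its other probe sets, with control means of 5.95 and 4.20, lay below the filter.

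Ret, the GDNF receptor tyrosine kinase, read 7.49, 7.48 and 7.45 in control and 7.48, 7.42 and 7.57 in HDAC2 KO, a difference of 0.02 with a 95% interval from -0.08 to 0.12. Gfra1, its co-receptor, lay below the filter at 6.27, 6.29 and 6.19 in control and 6.41, 6.56 and 6.31 in HDAC2 KO, without overlap (exact 2-sided permutation p = 0.1). Phox2a, a homeodomain factor of autonomic neurons, was below the filter too, with group means of 5.33 and 5.41 that overlapped on the arrays. Of 9 genes on the array for ligands and related receptors of enteric progenitors, 5 were tested and 0 were called by limma in either direction. The smallest p among them was that of Edn3, encoding endothelin 3, with a difference of 0.25 (SE 0.081, limma adjusted p = 0.0739). Its probe set of highest signal is one prone to cross-hybridise; another above the filter gave 0.42, with an adjusted p of 0.0120 over all probe sets, and Edn3 was called higher in 5 of 15 alternatives. The remaining genes named from that list were Ece1, which activates endothelin, at -0.09, Gfra2 at 0.22 and Gfra3 at -0.08; averaging probe sets turned the sign of Ece1 (0.09), and dropping cross-hybridising probe sets turned that of Gfra2 (-0.09).

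Among the 34 genes, those of the neuronal cytoskeleton held 1 call, that of Stmn3. Stmn3, a microtubule-destabilising protein of the stathmin family, read 8.39, 8.35 and 8.29 in control and 8.62, 8.56 and 8.44 in HDAC2 KO, without overlap. The difference was 0.20 (SE 0.052, limma adjusted p = 0.0369), or 1.15-fold. This value comes from a probe set whose probes may match more than its own gene. The other Stmn3 probe set, also above the filter, gave 0.07 and overlapping groups, and with it in place of the first the adjusted p was 0.458. The call was lost in 9 of 16 alternatives, among them each removal of 1 array except that of HDAC2 KO replicate 3 (adjusted p between 0.0623 and 0.119).

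The related Stmn2 read 7.74, 7.86 and 7.65 in control and 7.95, 7.98 and 7.84 in HDAC2 KO, with the lowest HDAC2 KO array just under the highest control array. Its difference of 0.18 (SE 0.060, adjusted p = 0.0793) was not called. With the replicate number as a block it was (adjusted p = 0.0244), and a second probe set gave 0.20 without overlap. Prph, encoding peripherin, an intermediate filament of peripheral neurons, differed by 0.12 without overlap (SE 0.049, adjusted p = 0.14).

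The pan-neuronal markers were not called. Uchl1, the deubiquitinase also known as PGP9.5, read 7.73, 7.68 and 7.46 in control and 7.73, 7.66 and 7.80 in HDAC2 KO, a difference of 0.10 with a 95% interval from -0.06 to 0.27. Tubb3, the neuronal beta tubulin, differed by -0.04 (interval -0.15 to 0.07), and Elavl4, an RNA-binding Hu protein, by -0.07 (interval -0.24 to 0.09). Elavl3, the other Hu gene, lay below the filter with group means of 6.36 and 6.32. The neurofilament genes Nefl and Nefm differed by -0.0030 and -0.01, and Gap43, a growth cone protein, by -0.03. A second Nefl probe set above the filter gave 0.11 without overlap between the groups. The widest of these intervals, that of Elavl4, leaves room for a fall of 1.18-fold or a rise of 1.07-fold. That of Uchl1 leaves room for a rise of 1.21-fold.

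Of the synaptic genes among the 34, Syt1, the calcium sensor of transmitter release, was called. It read 7.79, 7.78 and 7.80 in control and 7.88, 7.998 and 7.94 in HDAC2 KO, without overlap. The difference was 0.15 (SE 0.039, limma adjusted p = 0.0353), or 1.11-fold. With the replicate number as a block the adjusted p was 0.0520, and the call was lost in 8 of 14 alternatives, among them each removal of 1 array except that of HDAC2 KO replicate 1 (adjusted p between 0.0586 and 0.110). Snap25, a SNARE protein of the same release machinery, read 8.005, 8.14 and 8.18 in control and 8.29, 8.10 and 8.23 in HDAC2 KO (difference 0.10, SE 0.063, adjusted p = 0.325). L1cam, an adhesion molecule of migrating crest cells and axons, read 9.79, 9.85 and 9.78 in control and 9.89, 9.91 and 9.98 in HDAC2 KO. The groups did not overlap, and the difference of 0.12 (SE 0.038) had an adjusted p of 0.0626. L1cam was called higher in 4 of 16 alternatives (limma adjusted p between 0.0286 and 0.0448). Ncam1, the neural cell adhesion molecule, differed by -0.0030 with an interval from -0.16 to 0.15.

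Glial genes gave no call. Sox10, the transcription factor of crest progenitors and glia, read 7.15, 7.18 and 7.24 in control and 7.17, 7.31 and 7.21 in HDAC2 KO (difference 0.04, SE 0.046, adjusted p = 0.628). Ednrb, the endothelin receptor of crest progenitors and glia, read 7.01, 6.81 and 6.95 in control and 6.95, 6.88 and 7.004 in HDAC2 KO (difference 0.02, SE 0.057, adjusted p = 0.842). The 95% intervals of the 2 genes reach from -0.11 to 0.15. The defining glial markers S100b, a calcium-binding protein, and Gfap, the glial intermediate filament, lay below the filter with group means of 6.18 and 6.23 for S100b and 5.70 and 5.69 for Gfap.

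Erbb4 and Cryl1 belong to none of these classes. Erbb4, a neuregulin receptor, lay below the filter with group means of 3.90 and 4.01. Cryl1, an enzyme related to lens lambda-crystallin, read 10.96, 10.89 and 10.85 in control and 10.92, 10.92 and 10.86 in HDAC2 KO (difference -0.0035, interval -0.09 to 0.09). A further Cryl1 probe set was lower without overlap, by 0.13, and had an adjusted p of 0.187 over all probe sets.

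Counting genes whose groups did not overlap, 7 of the 24 tested genes were higher in HDAC2 KO on every array (Gal, Calb2, Hand2, Stmn3, Syt1, L1cam and Prph) and 0 were lower. Over all genes tested 37.7% did not overlap, 19.9% higher and 17.7% lower. Of the 10 genes below the filter, 3 were higher without overlap (Gfra1, Slc18a3 and Th), against 8.18% of all genes below the filter, and 0 were lower. All 24 tested genes had both group means above the filter level, so none of them passed through 1 group alone.

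With each of the 45037 probe sets entered singly, 2 of the 75 were called, those of Gal (limma adjusted p = 0.000964) and Hand2 (limma adjusted p = 0.0337), both higher. Of all probe sets 3.8% were called, 1.72% higher and 2.08% lower. In 8 genes with several probe sets above the filter, the probe sets shared a direction in 5 (Dbh, Nos1, Sox10, Stmn2 and Stmn3) and differed in Cryl1, Ncam1 and Nefl.

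**Figure D3:**
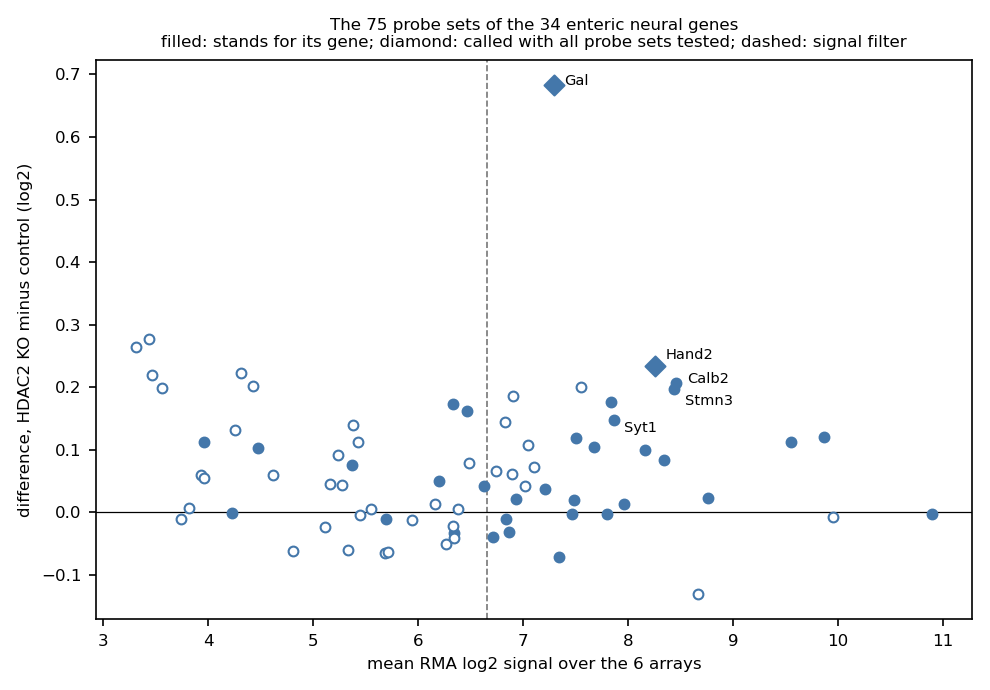
The 75 probe sets of the 34 genes, by mean log2 signal over the 6 arrays (horizontal) and difference between HDAC2 KO and control (vertical, log2), filled where the probe set stands for its gene, diamonds where called among all probe sets. Most probe sets left of the dashed filter line at 6.66 belong to genes also measured by a brighter probe set, and only the probe sets of Gal and Hand2 are called.

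Promoter windows of 24 of the 34 genes were found in the RefSeq table of GRCm38.p6, 250 bases before to 50 after each annotated start. They were searched on both strands for the left core CAGCACC and the right core GGACAG of RE1, the element bound by the neuronal repressor REST, for both cores with 2 bases between them, and for the SOX core ACAAAG. The windows of the called genes are shown because these genes moved the same way, as the 250 bases before the start, 5′ to 3′ on the strand of the gene, with any match in capitals; Calb2 was not found. Gal lies at chr19:3414545-3414794 (minus strand), Hand2 at chr8:57320733-57320982 (plus strand), Stmn3 at chr2:181314501-181314750 (minus strand) and the more upstream of the Syt1 starts at chr10:109010976-109011225 (minus strand).
Gal: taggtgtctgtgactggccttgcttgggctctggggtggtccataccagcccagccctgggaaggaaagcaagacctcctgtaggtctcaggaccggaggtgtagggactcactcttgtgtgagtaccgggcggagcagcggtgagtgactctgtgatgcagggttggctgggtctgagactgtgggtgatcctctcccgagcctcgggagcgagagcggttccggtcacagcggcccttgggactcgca
Hand2: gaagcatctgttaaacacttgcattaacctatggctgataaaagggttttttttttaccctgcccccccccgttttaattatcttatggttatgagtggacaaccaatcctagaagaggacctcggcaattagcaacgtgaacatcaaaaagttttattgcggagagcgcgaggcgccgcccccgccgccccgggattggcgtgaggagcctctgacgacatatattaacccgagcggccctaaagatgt
Stmn3: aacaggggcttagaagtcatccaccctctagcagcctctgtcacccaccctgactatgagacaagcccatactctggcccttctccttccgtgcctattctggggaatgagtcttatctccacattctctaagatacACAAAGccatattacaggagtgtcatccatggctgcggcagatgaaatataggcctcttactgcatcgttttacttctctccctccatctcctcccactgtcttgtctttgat
Syt1: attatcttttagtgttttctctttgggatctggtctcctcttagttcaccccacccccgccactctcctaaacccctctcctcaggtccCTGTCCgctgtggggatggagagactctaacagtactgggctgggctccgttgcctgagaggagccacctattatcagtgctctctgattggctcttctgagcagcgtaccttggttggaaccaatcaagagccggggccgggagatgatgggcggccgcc

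No window of the 24 genes held both RE1 cores at that spacing, which 0.0365% of all 32851 windows did. The right core stood in windows of 7 of the 24 genes (29.2%; 24.7% of all genes with a window), among them Syt1, on the minus strand of its window at positions -161 to -156. The left core stood in 2 of 24 (Tubb3 and Ednrb; 8.33% against 8.14%). The SOX core stood in Stmn3, at positions -113 to -108, and in the other Syt1 window, 8.33% of genes against 21% of all. Gal and Hand2 held none of these motifs in the window. A match describes letters only, and their absence from this window says nothing of the factor.

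Further genes listed under the same classes went both ways, and which cells gave each signal was not tested. Of 13 further neuronal genes tested, 3 were higher and 3 lower, with a median of -0.0013. Vamp2, a synaptic vesicle SNARE protein, was 1.19-fold higher and Dpysl3, an axon guidance protein, 1.18-fold higher; Syt4, a synaptotagmin, was the other higher gene, with a difference of 0.19. Thy1, a surface protein of neurons and T cells, was 1.27-fold lower and Syn2, which encodes synapsin II, 1.195-fold lower; Map2, a microtubule protein of dendrites, was the other lower gene, with a difference of -0.23. Of 8 further glial genes, 1 was higher and 1 lower: Pmp22, a myelin protein also made by other cells, by 1.203-fold, and the water channel gene Aqp4, which was 1.12-fold lower. Aqp4 had a control mean of 12.53, where the glial markers S100b and Gfap had 6.18 and 5.70. Entpd2, an ectonucleotidase, and Gpm6b, a proteolipid, differed by 0.08 and -0.13 and were not called.

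Among 8 further transmitter genes, 1 was higher and 2 lower. Grp, encoding gastrin-releasing peptide, rose 1.34-fold (difference 0.42, SE 0.056, limma adjusted p = 0.00168), from 8.30 ± 0.069 to 8.71 ± 0.093 (SD, n = 3). Htr4, a serotonin receptor, read 8.88, 8.88 and 8.86 in control and 8.02, 7.80 and 7.93 in HDAC2 KO, and so fell by 0.96 (SE 0.054, limma adjusted p = 1.67e-05). A second Htr4 probe set, below the filter, went the opposite way, from 4.96 ± 0.037 to 5.24 ± 0.12 (SD, n = 3), and averaging both left a difference of -0.34. Ddc, the decarboxylase that makes dopamine and serotonin, was 1.19-fold lower from a control mean of 11.52, and the cells behind it were not tested. Calcb, the beta form of calcitonin gene-related peptide, differed by 0.19 (limma adjusted p = 0.125).

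Pacemaker genes did not move together. Of 7 genes tested, 1 was higher and 3 lower, with a median of -0.03. Kit, the receptor that interstitial cells of Cajal need, read 9.97, 9.997 and 9.95 in control and 9.94, 9.87 and 10.02 in HDAC2 KO and was not called; it was chosen after its values were seen. Ano1, the chloride channel of the slow wave, read 12.59, 12.61 and 12.57 in control and 12.49, 12.46 and 12.49 in HDAC2 KO. Its fall of 1.08-fold (adjusted p = 0.0487) was lost in 12 of 16 alternatives, among them the replicate block (0.0730) and the removal of any 1 array. The control mean was 12.59 for Ano1 and 9.97 for Kit, and which cells gave the Ano1 signal was not tested. Kitl, which encodes the KIT ligand and is made by many cells, was 1.21-fold lower, Thbs4, a matrix protein, 1.16-fold lower, and Cacna1h, a T-type calcium channel, 1.21-fold higher. For the neighbouring PDGFRA-type interstitial cells, Cd34, also a marker of endothelium, was 1.22-fold lower among 3 genes tested, while Pdgfra itself and P2ry1, a purine receptor, differed by 0.08 and 0.06.

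**Figure D4:**
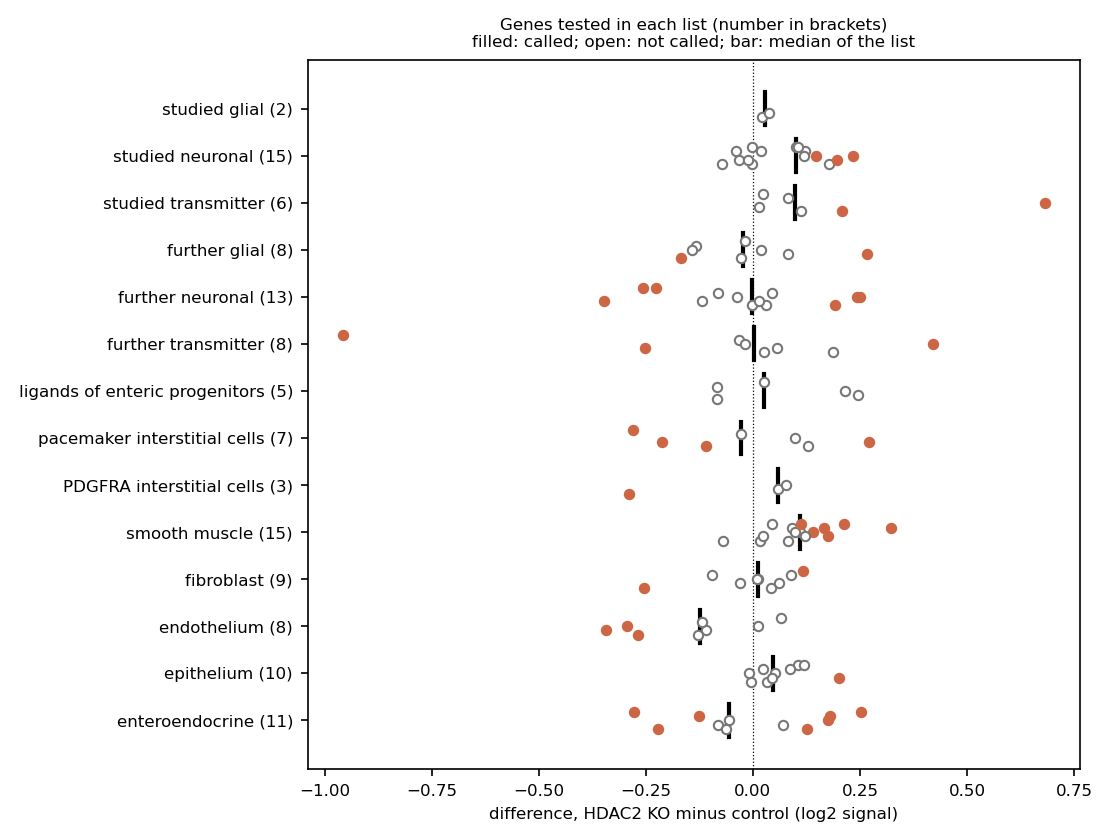
Differences (HDAC2 KO minus control, log2 signal) of the genes tested in each list, the studied genes first. Filled points are called, open points are not, and black bars are medians. Fat genes (-3.02 to -1.41), leukocyte genes (-1.39 to -0.29) and Cryl1 are not drawn. The studied neuronal and transmitter genes have medians of 0.10 and 0.10, near that of smooth muscle (0.11), and the further neuronal genes lie on both sides of 0.

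Markers of some other cells of a colon sample also differed between the groups, and those of enteroendocrine cells and fibroblasts went both ways. Of 15 smooth muscle genes 0 were lower and 6 higher, among them the contractile and cytoskeletal genes Cnn1 (1.25-fold), Des (1.16-fold), Actg2 (1.13-fold) and Myl9 (1.10-fold). The mean log2 signal of the list ran from 11.97 to 11.99 in control and from 12.08 to 12.11 in HDAC2 KO. Epithelial markers were higher in 1 of 10 cases (Cdx2, 1.15-fold), with Krt18, Vil1 and Muc2 at 0.10, 0.12 and 0.09 and not called, and list means of 13.32 to 13.33 and 13.37 to 13.40. Of 11 enteroendocrine genes, a cell type that shares secretory machinery such as Snap25 with neurons, 4 were higher and 3 lower, among them Sst (1.19-fold higher), Gcg (1.13-fold higher), Sct (1.13-fold higher) and Chga (1.17-fold lower), with list means of 9.36 to 9.40 and 9.36 to 9.43.

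All 8 leukocyte genes tested were lower, including Ighm (2.62-fold), Cd3d (2.59-fold), Coro1a (1.87-fold) and Ptprc (1.74-fold), with list means of 9.70 to 9.76 in control and 8.91 to 8.96 in HDAC2 KO. All 5 fat genes tested were lower, including Adipoq (8.13-fold), Car3 (6.83-fold), Fabp4 (4.35-fold) and Lpl (2.66-fold), with list means of 10.84 to 10.91 and 8.66 to 8.74. Endothelial genes were lower in 3 of 8 cases (Pecam1, 1.27-fold, Tek, 1.23-fold, and Cdh5, 1.21-fold), with Esam at -0.12 and not called and list means of 7.76 to 7.85 and 7.63 to 7.68. Of 9 fibroblast genes 1 was higher (Col6a2, 1.08-fold) and 1 lower (Dcn, 1.19-fold), with Col6a1 and Lum at 0.09 and -0.10 and not called and list means of 10.08 to 10.13 and 10.09 to 10.12. The part of these cell types in the differences of the neural genes was not tested.

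By comparison, the mean log2 signal of the 15 neuronal genes tested ran from 7.66 to 7.73 in control and from 7.77 to 7.79 in HDAC2 KO, that of the 6 transmitter genes from 8.28 to 8.34 and from 8.46 to 8.52, and that of the 2 glial genes from 6.99 to 7.10 and from 7.06 to 7.11. The neuronal and transmitter ranges do not overlap between the groups, and the glial ranges do. Gal, at 0.68, weighs on the transmitter means, and the differences of the other transmitter genes lay between 0.01 and 0.21. Of the 15 neuronal genes, 9 differences were above 0 and 6 below. The further lists did not share this separation. Means of the 13 further neuronal genes ran from 7.52 to 7.57 in control and from 7.50 to 7.59 in HDAC2 KO. Those of the 8 further transmitter genes ran from 8.756 to 8.820 and from 8.649 to 8.761. The mean over all genes tested ran from 9.07 to 9.10 in both groups. The median SD within a group over the 24 genes was 0.059 in control and 0.063 in HDAC2 KO, against 0.043 and 0.051 over all genes tested.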

How the data were processed

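Biotin-labelled cRNA of each mouse went onto its own array, per the labels' protocols. The values used are the deposited log2 signals, made by the authors with RMA (named in the submitters' processing notes; version not given in the sources used here), a method that removes background, equalises array distributions and summarises probes. Precision is limited by having 3 arrays in each group.

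Names came from the platform annotation of 2016 (34945 probe sets with 1 symbol, 932 with several, 9160 with none), and the probe set with the highest mean stood for each gene. Genes above the 40th percentile of mean signal entered a fit by limma 3.58.1 under R 4.3.3 (lmFit and eBayes with group as sole term), with Benjamini-Hochberg adjustment over these 10916 genes; the fit was tested on simulated data. The 34 genes and the lists were chosen with earlier results of these data known. Named are all 34 genes, Hdac2 and the 4 genes of smallest p in each other list; Kit, Map2, Syt4, Chrnb4, Cartpt, Nts, Nefh and Tacr3 fall outside this rule and were chosen after their values were seen. Each result was recomputed under 16 alternatives; applying these to the other lists and to the median was decided after seeing the data.

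Deviations of same-numbered arrays of the 2 groups correlated with r between 0.20 and 0.34. For unlike-numbered arrays r ran from -0.37 to 0.18, the highest of them close to the lowest same-numbered value. Deviations from a group mean cancel out within the group, so a positive r for like numbers pushes r for unlike numbers down. The contrast between them is thus partly set by the method. The replicate numbers of the titles were also fitted as a block, a pairing that comes from these correlations.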

Additional observations from a re-analysis of the deposited data

How the results depend on the processing

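No call among the 34 genes changed direction. Of 77 alternative fits of the 5 called genes, 53 kept the call and 24 lost it. Against 5 in the main fit, the number of the 34 genes called higher was 2 of 34 tested without the signal filter and 3 of 22 with averaged probe sets. It was 9 of 24 with array weights, 2 of 34 with all probe sets tested, and 2 to 4 without 1 array. For neuronal genes (3) these counts were 1, 1, 6 and 1, and 1 to 2 without 1 array. For transmitter genes (2) it was 1 without the filter, with the filter at the 60th percentile and with all probe sets, and 1 to 2 without 1 array. None was called lower in any setting. The share of all genes called higher moved too, from 9.68% to 3.88% without the filter, 8.55% with averaged probe sets and 17.2% with array weights. It was 11.1% with the filter at the 60th percentile and 5.72% to 11.2% without 1 array. With all probe sets tested it was 2.435% of those that stand for a gene. The median difference was 0.12 with the filter at the 60th percentile, which left 8 genes. With the replicate block the count stayed at 5, as Syt1 (adjusted p = 0.0520) was replaced by Stmn2 (0.0244), and no other call among the 34 genes changed.

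Over all genes, 1874 were higher and 1632 lower with array weights, and 443 and 483 with all probe sets, against 1057 and 895; without 1 array 624 to 1222 were higher and 506 to 885 lower. The arrays whose removal moved a count over 1.5 times were control replicate 1 (624 higher, 506 lower), control replicate 2 (550 lower), control replicate 3 (643 higher) and HDAC2 KO replicate 1 (632 higher).

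Of the 19 genes tested and not called, 9 changed sign, in 27 of 287 fits. Of the 10 genes below the filter, 5 changed sign (S100b, Gfap, Elavl3, Chat and Npy), in 13 of 160 fits. With averaged probe sets the differences were -0.0018 for Ret, 0.0069 for Elavl4, 0.052 for Nefl, 0.00090 for Cryl1 and 0.087 for Ece1. Centring gave 0.00028 for Nefl and 0.00028 for Ncam1, a further quantile normalization 0.0033 for Ncam1, array weights -0.023 for Dbh, and dropping cross-hybridising probe sets -0.093 for Gfra2. Without 1 array, Sox10 ranged from -0.0022 to 0.067, Ednrb from -0.035 to 0.062, Ret from -0.022 to 0.055, Elavl4 from -0.13 to 0.0015, Nefl from -0.024 to 0.013, Nefm from -0.073 to 0.063, Ncam1 from -0.080 to 0.053, Dbh from -0.058 to 0.071 and Cryl1 from -0.028 to 0.025. The cause of these changes was not tested. Signals near background, as for Chat, Th, S100b and Gfap, limit what these arrays can show.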

Other observations

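Below the signal filter, genes of the further neural lists went both ways. Of 15 further neuronal genes there, 5 were higher on every HDAC2 KO array and 1 lower; of 8 further transmitter genes, 2 were higher and 1 lower; of 4 further glial genes and of 4 ligand and receptor genes, 0 were separate in either direction; and both enteroendocrine genes, 2 in number, were higher. Of all genes below the filter, 15.6% did not overlap between the groups, and in 8.18% of all such genes HDAC2 KO was the higher group. The examples that follow were chosen after their values were seen. Chrnb4, a subunit of the ganglionic nicotinic receptor, read 6.04, 5.91 and 6.08 in control and 6.34, 6.33 and 6.47 in HDAC2 KO. Cartpt, a neuropeptide precursor of enteric neurons, read 6.19, 6.47 and 6.17 in control and 6.54, 6.84 and 6.56 in HDAC2 KO. Nts, the neurotensin gene of enteroendocrine cells, read 4.27, 4.48 and 4.54 in control and 5.58, 5.73 and 5.56 in HDAC2 KO. The lower neuronal and transmitter genes were Nefh, a neurofilament gene, with a difference of -0.11, and Tacr3, a tachykinin receptor, with a difference of -0.19.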
